A study of Mus musculus with 27 samples.

Results

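The effect of parathyroid hormone (PTH) on transcript levels was compared between 6 h and 24 h of treatment in KUSA4b10, a mouse marrow stromal cell line. The change of effect is the PTH-minus-control difference at 24 h minus the same difference at 6 h, on the log2 scale. It rests on 12 of the 27 arrays of the series, chosen by sample title: 3 untreated and 3 PTH-treated arrays at each time. The treated cells received PTH(1-34) at 10 nM. The untreated cells carry no agent, the labels name no genetic modification, and each time has untreated arrays of its own, so the PTH effects at 6 h and at 24 h share no array. The remaining 15 arrays hold the 1 h groups and cells given PTHrP(1-141) at 20 nM, and they enter the fit only through the common estimate of the spread. KUSA4b10 is a single cell line, and nothing in the labels says that the 3 arrays of a group came from separate cultures. All p-values therefore measure the spread between these arrays, which may be technical.

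PTH acts on osteoblast-lineage cells through PTH1R, a G protein-coupled receptor that raises cAMP and activates protein kinase A. The early transcriptional response contains immediate early genes, secreted cytokines and feedback inhibitors of the receptor, and many of these transcripts are short-lived. In bone, PTH-treated stromal cells direct osteoclast formation through RANKL (Tnfsf11) and its decoy receptor osteoprotegerin (Tnfrsf11b), and exposure time is known to matter for whether the hormone favours bone formation or resorption.

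The arrays were Affymetrix 3' expression arrays, and the values are normalized probe-set intensities, used as log2. A gene was represented by its brightest probe set, and 15711 genes passed a filter of log2 intensity 5 on at least 3 arrays. Array medians lay between 83.2 and 89.4 intensity units over the 12 arrays, and arrays of a group correlated at 0.992 to 0.998. The lowest value was between PTH-treated replicates 1 and 2 at 24 h. Of 17 marrow stromal markers 15 had a mean log2 intensity of at least 7 over all 27 arrays, as had 11 of 14 adipocyte markers (among them Lpl, Plin2, Adipoq and Fabp4), 5 of 12 chondrocyte, 5 of 11 skeletal muscle, 4 of 15 macrophage and blood cell and 1 of 10 endothelial markers. Values on this scale never reach 0, so a low marker cannot be called absent. The 3'-minus-5' log2 difference of the Actb control probe sets was 0.25 ± 0.05 (SD, n = 3) in untreated cells at 6 h and 0.34 ± 0.01 (n = 3) in PTH-treated cells at 6 h. At 24 h it was 0.38 ± 0.01 (n = 3) untreated and 0.42 ± 0.01 (n = 3) treated, while the Gapdh pair stayed between -0.21 and -0.17 in the 4 groups. Its part in the results was not tested.

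The most common change over the interval was a weaker PTH effect at 24 h than at 6 h. PTH changed 4605 genes at 6 h (29.3% of those tested; 11.4% higher and 17.9% lower) and 1830 at 24 h (11.6%; 5.69% higher and 5.96% lower), at an adjusted p under 0.05 in limma with Benjamini-Hochberg adjustment. The effect itself differed between the times for 3211 genes (20.4%), being higher at 24 h than at 6 h for 1983 (12.6%) and lower for 1228 (7.82%). A difference of more than 2-fold between the effects was found for 449 of them (2.86%). Of the 4605 genes called at 6 h, 2595 (56.4%) had a called change of effect and 2010 had none. The median change over all tested genes was -0.01 on the log2 scale, and the median standard error of a change was 0.14.

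The 3211 genes were divided by the PTH effect at each time. A response was called fading when the change and the 6 h effect passed the test and the 6 h effect was the larger in size, and growing when the change and the 24 h effect passed and the 24 h effect was the larger. It was called reversing when the change and both effects passed with opposite signs. Fading responses numbered 2291 (14.6% of tested genes), of which 848 were increases (5.4%) and 1443 decreases (9.18%). Growing responses numbered 444 (2.83%), with 225 increases (1.43%) and 219 decreases (1.39%), and reversing responses 249 (1.58%). A further 227 genes (1.44%) changed without meeting any definition. The threshold ran between Yipf5 (change -0.31, adjusted p = 0.04999 in limma) and Ttc9c (change 0.27, adjusted p = 0.0502), so genes on the edge of a class differ little from those just outside.

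**Figure D1:**
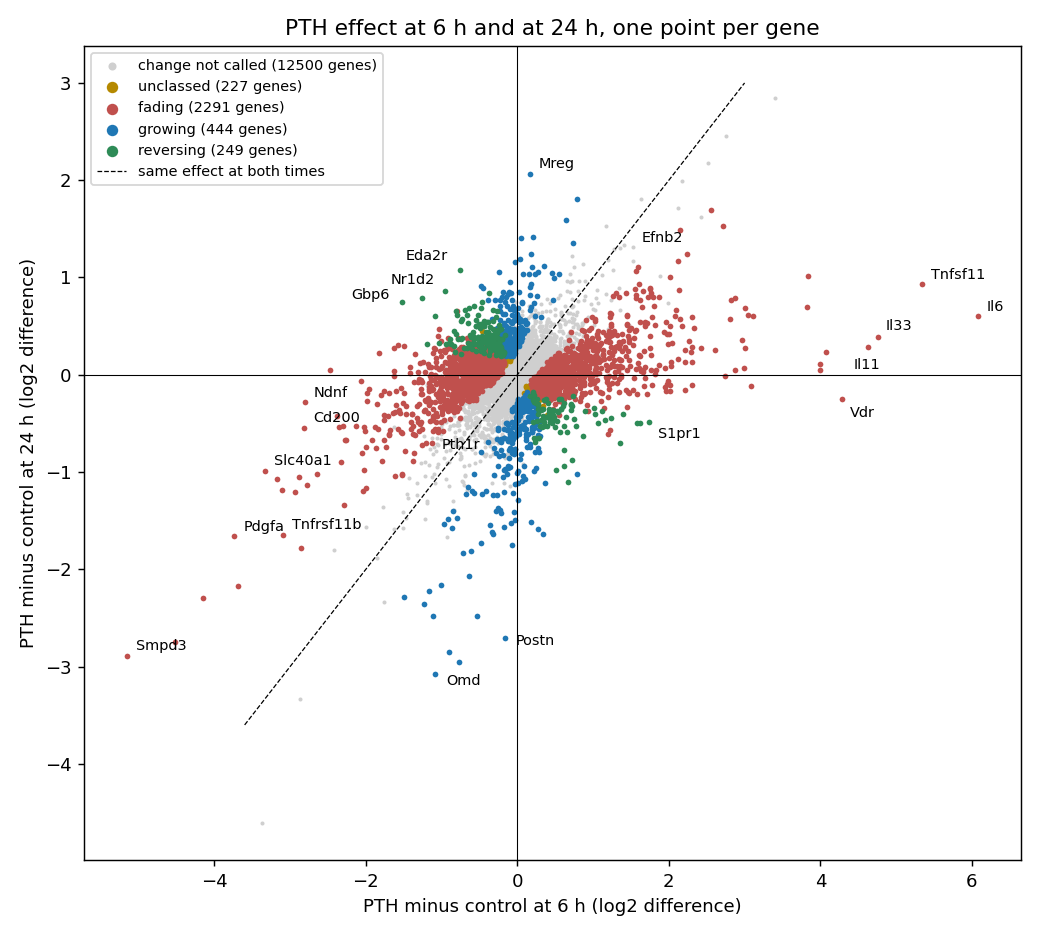
Each point is 1 of the 15711 tested genes, placed by its PTH-minus-control log2 difference at 6 h (horizontal) and at 24 h (vertical) and coloured by class. The 2291 fading genes lie along the horizontal axis, the 444 growing genes along the vertical axis, and the 249 reversing genes in the upper left and lower right of the plot.

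Large early responses were mostly smaller by 24 h. Of 537 genes that PTH changed more than 2-fold at 6 h (3.42% of those tested), 440 faded, 75 had no called change, 16 reversed and 6 grew. Choosing genes by a large 6 h effect favours fading over growing, and choosing by the 24 h effect favours the reverse. Such splits are partly set by the choice. At 24 h 74 of the 537 were still changed more than 2-fold in the same direction. Of the faders over 2-fold at 6 h, 89 of 251 increases and 87 of 189 decreases still passed the test at 24 h. Over all sizes, most fading genes, 2067 of 2291, had no called effect at 24 h, and 1293 of those 2067 had a 24 h estimate of the opposite sign. Selection on a called change favours 24 h estimates of the opposite sign, so that count is partly set by the definition. The 224 fading genes called at both times kept their sign by definition, and the median of these kept 39.4% of the log2 effect. The late response contained fewer genes: 164 were changed more than 2-fold at 24 h (1.04%), of which 75 were growing, 28 fading, 2 reversing and 59 had no called change. A group of 500 genes had called effects of the same sign at both times with no called change between them, which does not show that their effects were equal.

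Fading increases opened with genes of osteoclast regulation. Tnfsf11, which encodes RANKL, read 5.35, 5.30 and 4.66 (log2) on the untreated arrays at 6 h and 10.26, 10.57 and 10.52 on the treated arrays. At 24 h the untreated arrays read 4.93, 4.86 and 4.78 and the treated arrays 5.83, 5.45 and 6.08. Treated and untreated arrays did not overlap at either time, but the gap shrank from 40.7-fold to 1.91-fold, a change of -4.42 ± 0.39 (SE; adjusted p = 1.14e-08, limma).

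Il6, a cytokine that promotes osteoclast formation, gave the largest change of all fading increases. Its untreated arrays read 4.54, 4.13 and 4.63 at 6 h against 10.12, 11.01 and 10.41 with PTH. At 24 h they read 5.71, 4.74 and 4.40 untreated and 5.48, 5.72 and 5.46 treated, so the groups then overlapped. The effect went from 6.08 ± 0.37 to 0.60 ± 0.37 (SE), which no longer passed the test, and the change was -5.48 ± 0.52 (adjusted p = 3.46e-08, limma).

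Vdr, the vitamin D receptor, stood at 7.89, 7.84 and 7.94 untreated and 12.18, 12.15 and 12.22 with PTH at 6 h. By 24 h the treated arrays, at 7.27, 7.40 and 7.30, lay below the untreated ones at 7.40, 7.66 and 7.65, the 2 values of 7.40 differing only in later decimals. The 24 h effect of -0.25 ± 0.22 did not pass the test, and the change was -4.54 ± 0.31 (SE). Il33, an alarmin of the interleukin-1 family, went from an effect of 4.77 at 6 h to 0.39 at 24 h, and Il11, a cytokine that signals through gp130, from 4.63 to 0.29. Treated arrays of Il33 and Il11 stayed above the untreated ones at 24 h, although the effect did not pass the test for either gene. Il33 was then dim, at 4.85, 4.53 and 4.39 untreated and 4.89, 4.95 and 5.1 treated, near the filter level of log2 5.

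Among 20 tested osteoclast-regulating factors 9 changed (45%, against 20.4% of all genes). All 9 faded, as did 2291 of the 3211 changed genes of all kinds. The 7 increases were Tnfsf11, Il6, Il11, Il33, Vdr, Lif and Ptgs2, and the 2 decreases were Tnfrsf11b and Sema3a. Tnfrsf11b read 11.31, 11.36 and 11.16 untreated and 8.06, 8.27 and 8.20 with PTH at 6 h. At 24 h it read 9.82, 9.64 and 9.44 untreated and 8.18, 7.65 and 8.13 treated. The treated level moved by -0.19, which did not pass the test, while the untreated level fell by 1.64 on the log2 scale, so the narrowing from -3.10 to -1.65 came with a lower level in untreated cells. Fading of Tnfsf11 differed in this respect: its untreated arrays moved by -0.25, which did not pass the test, and its treated arrays fell by 4.66.

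**Figure D2:**
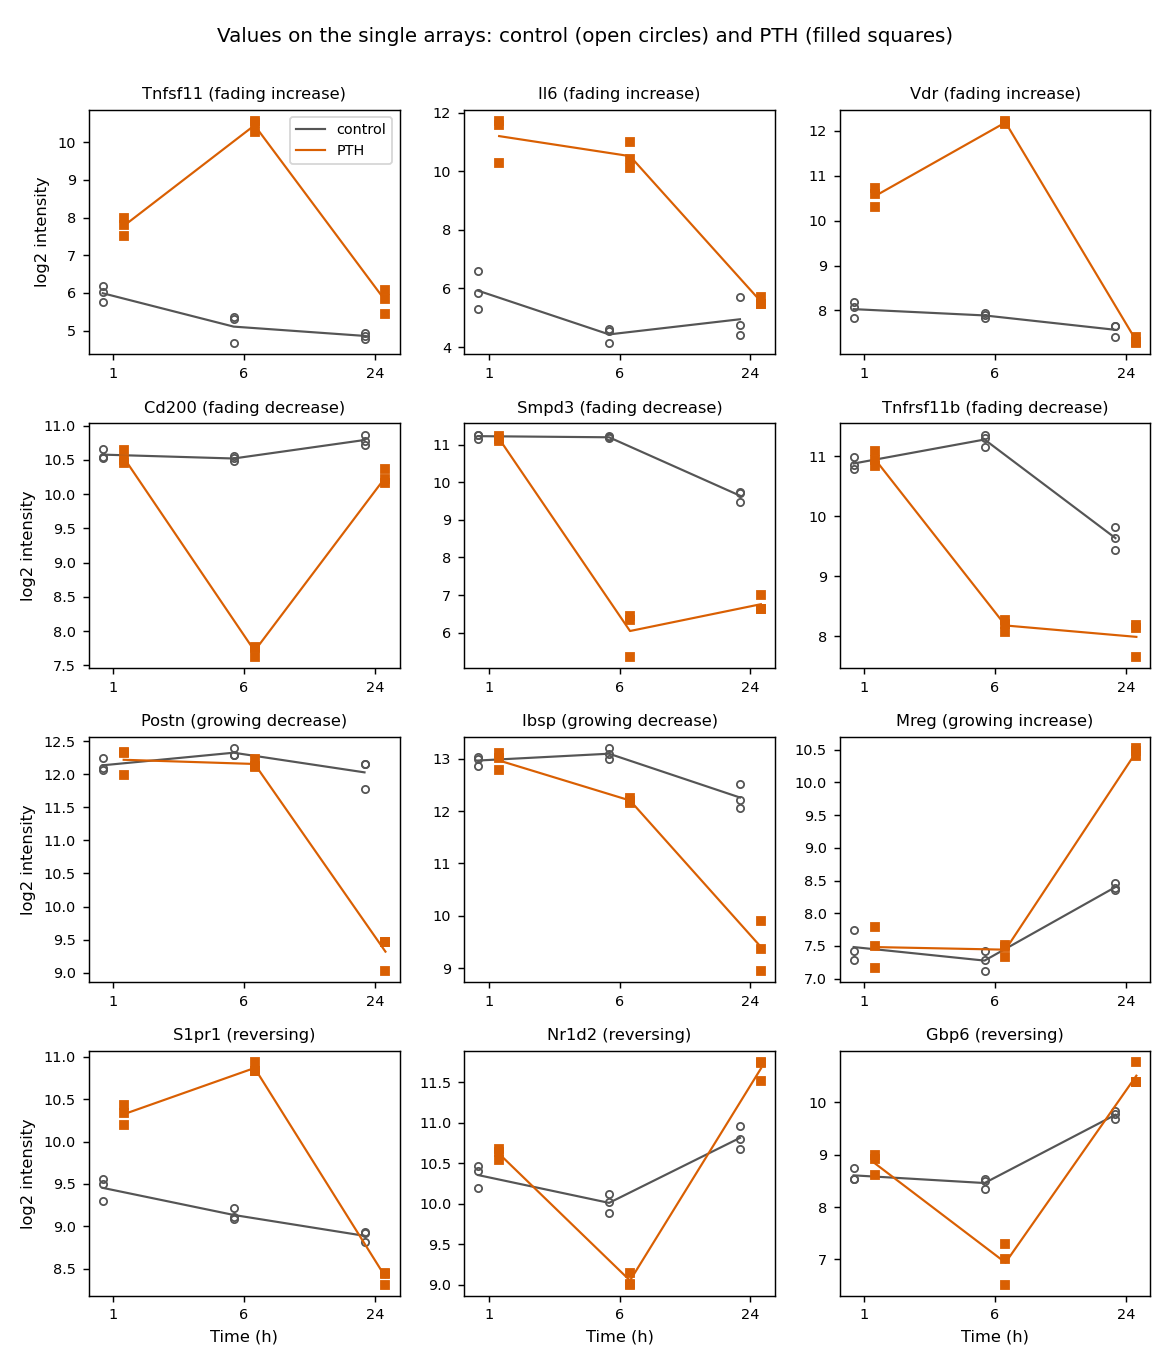
Log2 intensity on single arrays at 1, 6 and 24 h for 12 genes, with untreated arrays as open circles, PTH-treated arrays as filled squares and lines through the means of 3 arrays. Times are evenly spaced on the axis and each panel has its own scale. Tnfsf11, Il6 and Vdr lose most of their gap by 24 h, with the Tnfsf11 arrays still apart, Smpd3 and Tnfrsf11b narrow their gap with a falling untreated line, and the gap of Postn, Ibsp and Mreg is wider at 24 h than at 6 h.

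Other genes of osteoclast and osteoblast regulation had no called change. Efnb2, the ephrin ligand known in bone for osteoclast-osteoblast contact, differed by 1.53 ± 0.16 at 6 h and 1.31 ± 0.16 at 24 h, with a change of -0.22 ± 0.23 (adjusted p = 0.609, limma). Csf1, the macrophage colony-stimulating factor, gave 0.69 at 6 h and 1.04 at 24 h with no called change. Sost, the Wnt inhibitor of osteocytes, was dim on all 12 arrays (4.71 to 5.92) and gave no called effect at either time.

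Signalling through gp130, the receptor subunit shared by interleukin 6-type cytokines, had mainly fading members. Of its 24 tested members 14 changed (58.3%, against 20.4% of all genes), all fading and 13 of them increases. Among the 3211 changed genes of all kinds 2291 were fading. The list's median change was -0.49 against -0.01 for all genes. The cytokines Il6, Il11, Lif and Clcf1 had no called effect at 24 h, and neither had Fos and Pim1, which lie downstream. The receptor subunit Il6st fell from 1.45 to 0.60, Osmr, which binds oncostatin M, from 2.12 to 1.17, and Stat3 from 1.45 to 0.51, each still called at 24 h. Cebpb, a transcription factor of this pathway, went from 2.10 to 0.67. Its treated arrays differed by -0.07 between the times, which did not pass the test, and its untreated arrays rose by 1.36. Lifr, the leukaemia inhibitory factor receptor, was the single fading decrease, at -2.39 and then -0.43. That call depended on the probe set: another one of Lifr gave -0.48 and -0.76 with no called change. A further, dimmer one faded from -0.99 to -0.21. Socs3, the feedback inhibitor of the pathway, stayed at 2.52 and 2.18 with no called change.

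Of 42 tested genes of cAMP signalling and receptor feedback 23 changed (54.8%, against 20.4% of all genes). Of these 23 genes 20 faded, against 2291 of the 3211 changed genes of all kinds. Pde4b, a phosphodiesterase that breaks down cAMP, read 5.93, 5.82 and 5.75 untreated and 9.36, 9.88 and 9.74 treated at 6 h. At 24 h it read 6.26, 6.40 and 6.74 untreated and 7.22, 7.03 and 7.22 treated, a separation without overlap that was 1.62-fold instead of 14.2-fold. Gem, a small GTPase that limits calcium channels, fell from 3.84 to 1.02. Ramp3, a receptor activity-modifying protein, went from 4.00 to 0.11 and Cited1, a transcriptional coregulator, from 4.00 to 0.05, and treated and untreated arrays of both genes overlapped at 24 h.

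Further feedback members were Rgs2, a regulator of G protein signalling (3.00 and then 0.28), Crem, whose repressor forms limit cAMP-driven transcription (2.30 and -0.10), and the arrestin Arrb1 (2.30 and 0.14). The exceptions were Ramp1, a decrease that grew from -1.17 to -2.23, Grk5, which grew to 0.44, and the nuclear receptor Nr4a1, which reversed from 0.72 to -0.87. The receptor itself, Pth1r, read 11.29, 11.39 and 11.38 untreated and 10.33, 10.10 and 10.29 treated at 6 h. At 24 h it read 11.05, 10.83 and 10.95 against 10.38, 9.99 and 10.02, below the untreated arrays at both times. Its effect of -1.12 ± 0.09 at 6 h and -0.82 ± 0.09 at 24 h gave a change of 0.30 ± 0.13 that did not pass the test (adjusted p = 0.129, limma).

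Immediate early and AP-1 genes held the largest share of changed members, 28 of 38 (73.7%, against 20.4% of all genes). Fos, which was up 3.63 at 1 h, gave 2.12 at 6 h and 0.17 at 24 h, and Fosl1, another AP-1 subunit, 3.04 and 0.61. Jun and Nr4a1 reversed from higher to lower, at 1.15 and then -0.46 for Jun. The decreases of Egr1, Myc and Klf4, which were -1.42, -1.41 and -0.97 at 6 h, had no called effect at 24 h. At 1 h PTH changed 273 genes (1.74%). Of the 848 fading increases 123 were called higher at 1 h, or 14.5%, against 1.44% of all genes, while 14 of 1443 fading decreases were called lower, or 0.970%, against 0.299%. The 1 h arrays enter the classes only through the common estimate of the spread. Fading genes were all called at 6 h by definition, and genes called at 6 h that did not fade were not compared at 1 h. Whether fading goes with an early start was therefore not tested.

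Because cAMP-driven transcription acts through the cAMP response element, RefSeq promoter sequences (build GRCm38.p6; 250 bases before to 50 after each start) were searched for its full site TGACGTCA and its core TGACG, on both strands, the core being contained in the full site. Of the 15711 tested genes 12557 had at least 1 promoter in the table. The full site was in 3.146% of them, in 32 of 687 matched fading increases (4.658%) and in 26 of 1189 fading decreases (2.187%). The core was in 31.78% of all matched genes, 41.48% of the fading increases and 31.37% of the fading decreases. Among the 50 fading increases with the largest change 34 were matched. Of these, 1 held the full site (2.941%) and 10 held the core (29.41%), too few genes to compare these shares with those of all genes. These matches are descriptions of letters and not of binding.

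The promoters of Il6, the strongest fader, and of the 4 fading increases with the largest change that held the full site are shown 5′ to 3′ on the strand of the gene, with each match in capitals. Il6 lies at chr5:30012864-30013163 on the plus strand and holds the core on the opposite strand, starting 135 bases before the gene start. Mcam, a cell adhesion molecule, lies at chr9:44134408-44134707 (plus strand), Maff, a small Maf transcription factor, at chr15:79347270-79347569 (plus; 1 of 3 listed starts), Tubb2a, a beta-tubulin, at chr13:34077959-34078258 (minus), and Errfi1, an inhibitor of the EGF receptor, at chr4:150854820-150855119 (plus; 1 of 2 listed starts). The full site starts 29, 29, 59 and 51 bases before the start in that order. The changes of effect were -1.89 for Mcam, -1.47 for Maff, -1.30 for Tubb2a and -1.15 for Errfi1.
Il6: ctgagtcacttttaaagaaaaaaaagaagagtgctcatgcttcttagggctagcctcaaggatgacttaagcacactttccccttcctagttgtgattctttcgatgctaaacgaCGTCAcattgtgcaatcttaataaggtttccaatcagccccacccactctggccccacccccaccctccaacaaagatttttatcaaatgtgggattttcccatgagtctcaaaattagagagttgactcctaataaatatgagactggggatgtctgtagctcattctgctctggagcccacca
Mcam: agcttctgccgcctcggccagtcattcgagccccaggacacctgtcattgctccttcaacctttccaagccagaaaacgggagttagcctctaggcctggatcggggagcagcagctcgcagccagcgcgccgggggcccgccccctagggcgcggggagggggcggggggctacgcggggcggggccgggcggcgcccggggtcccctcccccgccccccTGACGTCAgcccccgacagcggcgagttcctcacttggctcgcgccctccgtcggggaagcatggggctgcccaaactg
Maff: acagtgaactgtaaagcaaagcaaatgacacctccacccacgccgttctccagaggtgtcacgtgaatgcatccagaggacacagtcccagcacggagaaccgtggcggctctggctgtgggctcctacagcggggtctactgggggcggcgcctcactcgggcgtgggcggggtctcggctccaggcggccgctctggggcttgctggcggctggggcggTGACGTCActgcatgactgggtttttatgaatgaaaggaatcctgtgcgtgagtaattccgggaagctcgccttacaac
Tubb2a: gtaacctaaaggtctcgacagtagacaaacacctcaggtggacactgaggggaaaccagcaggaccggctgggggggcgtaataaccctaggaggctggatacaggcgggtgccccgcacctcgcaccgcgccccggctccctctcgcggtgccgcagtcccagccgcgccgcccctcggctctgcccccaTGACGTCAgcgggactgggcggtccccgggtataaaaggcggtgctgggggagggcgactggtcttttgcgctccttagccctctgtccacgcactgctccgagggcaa
Errfi1: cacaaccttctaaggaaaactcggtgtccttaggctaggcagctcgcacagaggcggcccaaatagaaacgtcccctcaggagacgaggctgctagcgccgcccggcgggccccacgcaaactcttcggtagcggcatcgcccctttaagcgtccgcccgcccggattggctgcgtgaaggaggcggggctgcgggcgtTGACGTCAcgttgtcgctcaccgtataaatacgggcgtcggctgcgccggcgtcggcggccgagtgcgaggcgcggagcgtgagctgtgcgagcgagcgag

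Fading decreases were led by genes that were high in untreated cells. Cd200, a surface glycoprotein that restrains myeloid cells, read 10.55, 10.53 and 10.48 untreated and 7.62, 7.76 and 7.75 with PTH at 6 h. At 24 h it read 10.72, 10.78 and 10.87 untreated and 10.36, 10.16 and 10.22 treated, so that the decrease went from 7.03-fold to 1.46-fold without overlap at either time. Slc40a1, the iron exporter ferroportin, went from -3.33 to -0.99, Ndnf, a secreted neurotrophic factor, from -2.81 to -0.28, and Dtx4, a ubiquitin ligase of Notch signalling, from -2.47 to 0.05. For these 4 genes the treated arrays rose by 1.62 to 2.54 on the log2 scale between the times.

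Other fading decreases came with a larger fall in untreated cells. Smpd3, the neutral sphingomyelinase needed for bone mineralization, read 11.17, 11.22 and 11.20 untreated and 6.33, 6.45 and 5.35 treated at 6 h, a 35.7-fold decrease. At 24 h it read 9.74, 9.47 and 9.72 against 6.63, 6.63 and 7.01, a 7.41-fold decrease. Its untreated level fell by 1.55 while the treated level rose by 0.71. Pdgfa, a platelet-derived growth factor, went from -3.74 to -1.66 with an untreated fall of 1.53, and Tbx2, a T-box transcription factor, from -3.17 to -1.07 with an untreated fall of 1.60.

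Untreated cells were not constant over the interval: 3682 genes (23.4%; 12.1% higher and 11.4% lower at 24 h) differed between 24 h and 6 h without PTH, and 6570 (41.8%) with PTH. The untreated mean moved further than the treated mean for 144 of 848 fading increases (17.0%) and 276 of 1443 fading decreases (19.1%). For growing responses it did so in 22 of 225 increases and 21 of 219 decreases. Untreated cells differed between the times for 324 of 848 fading increases and 611 of 1443 fading decreases. Both are larger shares than the 23.4% of all genes, and the untreated arrays are part of the change itself. The other 524 and 832 gave no called difference.

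**Figure D3:**
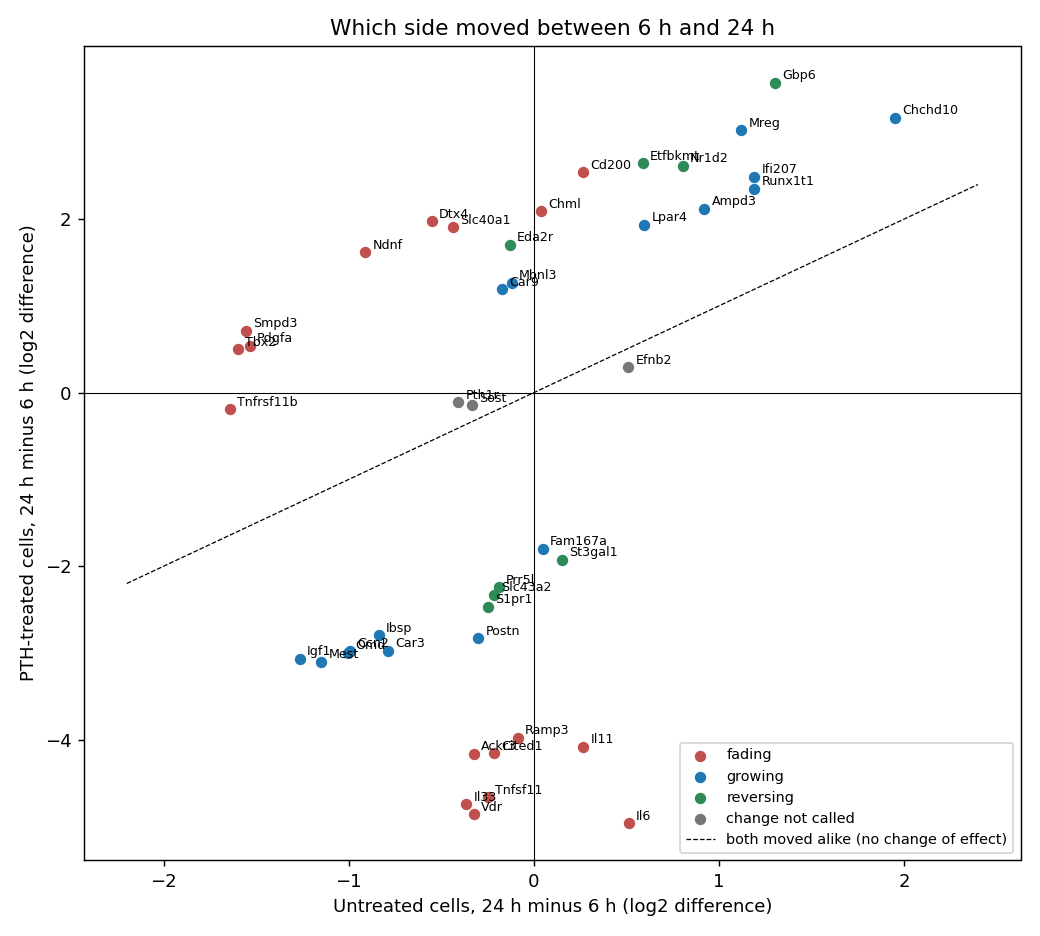
For the genes named by class and 3 further PTH-related genes without a called change, the log2 difference between 24 h and 6 h in untreated cells (horizontal) is set against that in PTH-treated cells (vertical). The vertical distance from the dashed line is the change of effect. Tnfsf11, Il6 and Vdr lie far below the line at untreated differences of -0.32 to 0.51, whereas Tnfrsf11b, Smpd3, Tbx2 and Pdgfa lie to the left, with untreated falls of 1.53 to 1.64.

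Growing decreases were led by Postn and included bone matrix and contractile genes. Postn, the matrix protein periostin, read 12.39, 12.29 and 12.29 untreated and 12.11, 12.23 and 12.12 treated at 6 h, a difference of -0.17 that did not pass the test. The 24 h arrays read 11.78, 12.15 and 12.15 untreated and 9.47, 9.03 and 9.46 treated, with every treated array more than 2 log2 units below every untreated one. The change was -2.53 ± 0.27 (SE; adjusted p = 1.90e-07, limma), which took a 1.12-fold to a 6.51-fold decrease.

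Omd, the matrix proteoglycan osteomodulin, and Ibsp, bone sialoprotein, were already lower at 6 h and fell further. Ibsp read 13.09, 13.20 and 13.00 untreated and 12.20, 12.15 and 12.26 treated at 6 h, and 12.51, 12.06 and 12.21 against 9.91, 8.95 and 9.36 at 24 h. Its decrease of 1.86-fold became 7.24-fold, and that of Omd went from 2.12-fold to 8.46-fold. Car3, a carbonic anhydrase, went from -0.77 to -2.95 and Mest, an imprinted gene of mesodermal tissue, from -0.53 to -2.48. Fam167a went from 0.27, not called, to -1.58.

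Of 29 tested osteoblast and osteocyte genes 14 changed (48.3%, against 20.4% of all genes). The list's median effect was -0.17 at 6 h and -0.58 at 24 h. The 6 growing members were all decreases: Postn, Omd, Ibsp, Alpl, Col1a1 and Sparc. Alpl, the alkaline phosphatase of mineralizing cells, went from -0.17 to -0.97, and Col1a1, the main collagen of bone, from -0.10 to -0.75 with a change of -0.65 ± 0.10. The 5 fading decreases were Smpd3, Tnfrsf11b, Mef2c, Dlx5 and Dlx3. Mef2c, a transcription factor of osteocyte gene control, went from -3.69 to -2.17, and the homeobox factor Dlx5 from -1.38 to -0.89. The 3 fading increases were Ank, Atf4 and Pdpn.

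Decreases that had no called change included Sp7, the osteoblast transcription factor osterix, at -1.85 and -1.89, and Panx3, a channel protein, at -2.86 and -3.33. Dmp1, an osteocyte matrix protein, was at -3.36 and -4.61. Within this list the transcription factors Dlx3, Dlx5 and Mef2c were in the fading class, and matrix proteins such as Postn, Omd and Ibsp in the growing class. No member was a growing increase.

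Among 62 extracellular matrix genes 24 changed (38.7%, against 20.4% of all genes), and 13 of them were growing decreases (1.39% of all genes). These included the small proteoglycan Fmod (-0.29 and then -1.40), tenascin C (Tnc, -0.46 and -1.22) and the basement membrane collagen Col4a1 (0.11 and -0.61). In the other direction Vcan, the large proteoglycan versican, faded from 2.72 to 1.53, and Has2, a hyaluronan synthase, from 1.83 to 0.04. The contractile cytoskeleton and CCN list had 16 changed members of 25 tested (64%, against 20.4% of all genes), and 10 were growing decreases. Tagln, the actin-binding protein transgelin, had an untreated mean of 11.12 at 6 h, above the treated arrays at 10.66, 10.95 and 10.80. The untreated arrays read 10.67, 10.73 and 10.70 at 24 h, against a treated mean of 9.06. That decrease grew from 1.25-fold to 3.10-fold.

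Ccn2, connective tissue growth factor, overlapped between treated and untreated arrays at 6 h (effect 0.34, not called) and was 3.12-fold lower at 24 h. The contractile members Acta2, Myl9 and Actg2 stood at -1.37, -1.23 and -1.09 at 24 h. Prostacyclin synthase, Ptgis, grew from -1.0 to -2.16, whereas Ptgs2 and Ptges, the inducible enzymes of prostaglandin E2 synthesis, faded from 1.61 to 0.20 and from 1.24 to 0.11. The summed intensity of the 17 marrow stromal markers, a list that contains Col1a1, Col1a2, Col3a1 and Sparc, was 103689 to 106369 on the untreated arrays at 24 h and 84144 to 89611 on the treated arrays. At 6 h it was 117552 to 119501 and 111512 to 113895. In such bulk RNA fewer cells of a kind and less RNA per cell cannot be told apart.

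Growth factor pathways divided between the classes. Igf1, insulin-like growth factor 1, gave 0.78 at 6 h, which just missed the test (adjusted p = 0.0514, limma), and -1.02 at 24 h (adjusted p = 0.0248, limma). Its treated arrays were above the untreated ones at 6 h and below them at 24 h, and its change was -1.80 ± 0.42. It counted as a growing decrease here but took another class in 14 of 25 alternative settings, and 2 of its other probe sets were classed as reversing. In the BMP, activin and TGF-beta list 16 of 43 changed (37.2%, against 20.4% of all genes). Inhba, the activin A subunit, faded from 1.2 to -0.61 (the latter not called). Ltbp2, a latent TGF-beta-binding protein, grew from 0.01 to -1.29, and the BMP target Id3 from -0.72 to -1.83. In the Wnt list 12 of 41 changed (29.3%, near the 20.4% of all genes). Wnt4, a ligand, faded from 2.02 to -0.10, the secreted inhibitor Sfrp1 from 1.78 to 0.59, and the secreted inhibitor Wif1 was a growing increase from 0.64 to 1.59.

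Growing increases were fewer in the chosen lists and smaller than the growing decreases: 18 were higher than 2-fold at 24 h, against 57 growing decreases lower than 2-fold. Mreg, melanoregulin, an organelle-trafficking protein, read 7.42, 7.29 and 7.12 untreated and 7.48, 7.52 and 7.33 treated at 6 h. After 24 h the arrays read 8.38, 8.46 and 8.36 untreated and 10.52, 10.40 and 10.48 treated. It rose in untreated cells by 1.12 and in treated cells by 3.03, and the change was 1.91 ± 0.19 (adjusted p = 8.81e-08, limma).

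Car9, a carbonic anhydrase known as a hypoxia target, went from 0.04 to 1.41, and its treated and untreated arrays overlapped at 6 h and not at 24 h. Other leading genes were Chchd10, a mitochondrial protein (0.21 and then 1.42), Ampd3, an AMP deaminase (-0.04 and 1.16), Lpar4, a lysophosphatidic acid receptor (-0.45 and 0.89), Runx1t1, a transcriptional corepressor (-0.39 and 0.77), and the splicing regulator Mbnl3 (-0.48 and 0.91). None of these 6 h effects passed the test. Ifi207, an interferon-inducible gene, gave 1.06 at 24 h, but 1 of its untreated arrays (7.08) lay inside the range of the treated arrays (6.98 to 7.62). Of the 225 growing increases 112 also rose in untreated cells, against 12.1% of all tested genes.

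In the glycolysis and hypoxia list 9 of 32 changed (28.1%, near the 20.4% of all genes), and Car9 was the only growing member. The 8 fading increases included the glucose transporter Slc2a1 (1.71 and then 0.53), Hk2, a hexokinase (1.24 and 0.62), and the angiogenic factor Vegfa (1.67 and 0.25). Adm, adrenomedullin, and Ndrg1 had no called change, at 1.35 and 1.30 and at 1.26 and 1.07.

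Reversing responses were small on both sides. Of the 249 genes, 82 were higher than control at 6 h and lower at 24 h, (0.522% of tested genes), and 167 were lower and then higher (1.06%). Differences of more than 1.5-fold at both times were found for 17, of more than 2-fold at 6 h for 16 and at 24 h for 2, and for 0 genes at both. A test against a 1.5-fold minimum (limma's treat) on the change and both effects left 0 reversing genes after adjustment and 1 at an unadjusted p under 0.05.

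S1pr1, a sphingosine-1-phosphate receptor, read 9.21, 9.11 and 9.08 untreated and 10.83, 10.94 and 10.84 treated at 6 h. Readings at 24 h were 8.81, 8.92 and 8.93 untreated and 8.44, 8.31 and 8.45 treated, so every treated array crossed from above to below the untreated ones. The effect turned from 1.74 ± 0.10 to -0.49 ± 0.10. Slc43a2, a neutral amino acid transporter, turned from 1.62 to -0.49, St3gal1, a sialyltransferase, from 1.58 to -0.50, and Prr5l, a protein associated with mTORC2, from 1.36 to -0.70. Ptger4, the EP4 prostaglandin receptor, was up 1.97 at 1 h and 1.07 at 6 h, and was at -0.50 at 24 h.

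The opposite turn was led by Gbp6, a guanylate-binding protein of the interferon response. It read 8.35, 8.53 and 8.5 untreated and 7.29, 6.52 and 7.01 treated at 6 h, and 9.68, 9.77 and 9.84 against 10.77, 10.38 and 10.38 at 24 h. The groups did not overlap at either time, and the effect went from -1.52 ± 0.21 to 0.75 ± 0.21. Etfbkmt, a mitochondrial protein methyltransferase, turned from -1.26 to 0.79 and Eda2r, a receptor of the tumour necrosis factor family, from -0.76 to 1.07. Of 34 interferon-stimulated genes 3 changed, below the background of 20.4%, and 25 rose in untreated cells between the times, so the turn of Gbp6 was not shared by most of that list.

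Circadian clock genes changed in 11 of 18 tested members (61.1%, against 20.4% of all genes). The 4 genes that reversed from lower to higher were Nr1d1 and Nr1d2, the REV-ERB repressors, and Dbp and Tef, transcription factors of the clock output. Nr1d2 read 10.02, 10.12 and 9.89 untreated and 9.0, 9.14 and 9.01 treated at 6 h. The 24 h arrays read 10.96, 10.80 and 10.68 untreated and 11.74, 11.52 and 11.75 treated, again with no overlap. Its effect went from -0.96 ± 0.17 to 0.86 ± 0.17, that of Dbp from -0.79 to 0.61, that of Nr1d1 from -0.44 to 0.56 and that of Tef from -0.62 to 0.31.

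Arntl, which encodes the clock activator BMAL1 and is repressed by REV-ERB proteins, turned the other way, from 0.57 to -0.36. Nfil3, a repressor that competes with Dbp and Tef for their sites, faded from 2.01 to -0.17 and had been up 2.45 at 1 h. The period gene Per1 faded from 1.13 to 0.20 and Cry1 from 0.94 to 0.15, whereas Per3 was a fading decrease from -0.69 to 0.02. Between the times 2 of the 18 members changed in untreated cells, both upward.

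**Figure D4:**
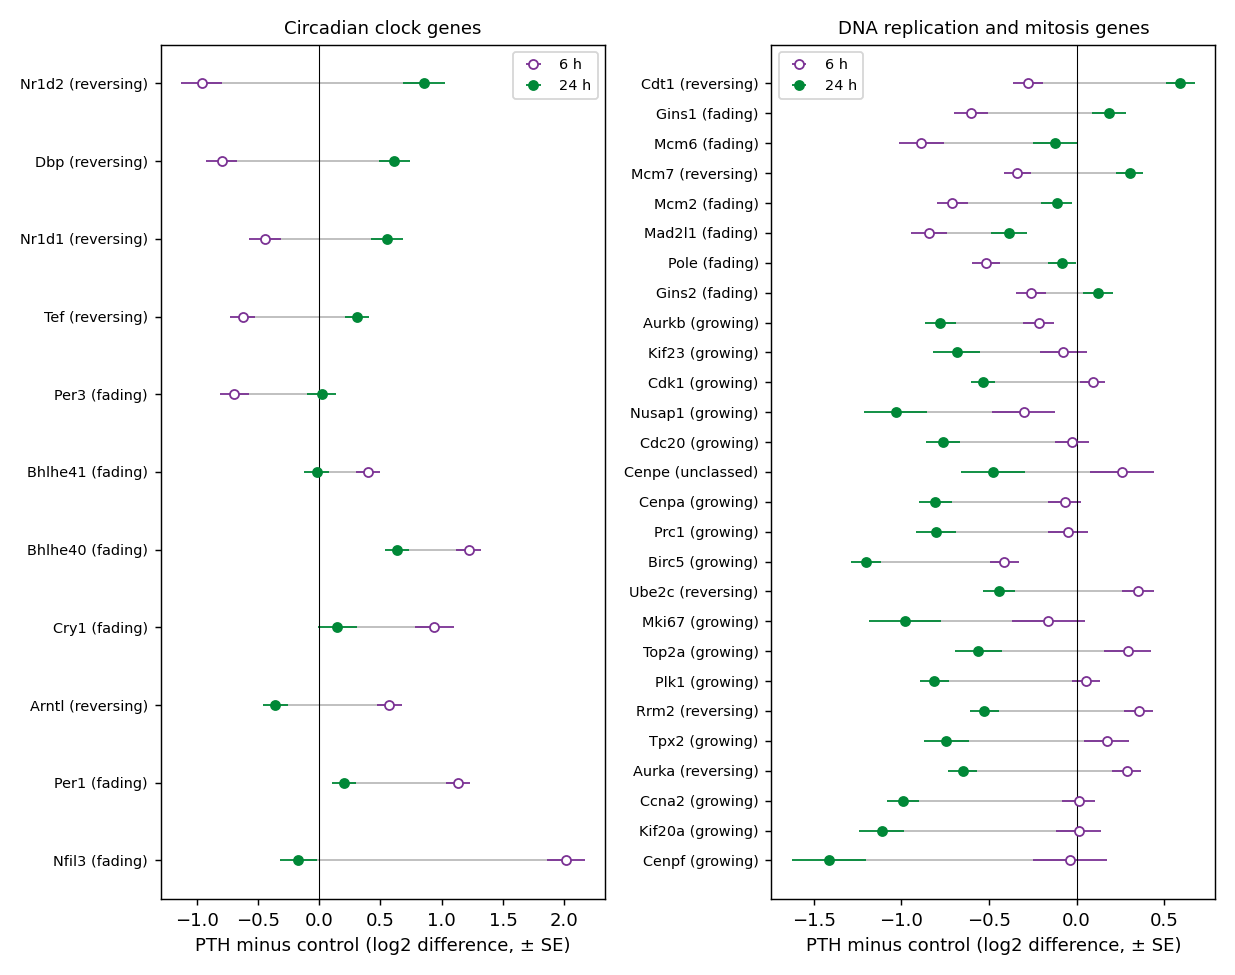
PTH-minus-control log2 differences with standard errors at 6 h (open circles) and 24 h (filled circles) for the members with a called change, 11 clock genes on the left and 27 genes of DNA replication and mitosis on the right. Nr1d2, Dbp, Nr1d1 and Tef cross from below to above 0, and the 15 growing decreases reach -0.53 to -1.41 at 24 h.

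Genes of DNA replication and mitosis had changes in both directions. Of 54 tested members 27 changed (50%, against 20.4% of all genes): 15 were growing decreases, 6 fading decreases and 5 reversed. Over all tested genes 1.39% were growing decreases. The growing decreases included genes of the later cell cycle, such as Ccna2 (cyclin A2), Cdk1, Plk1, Mki67, Kif20a and Cenpf. Ccna2 read 9.92, 9.76 and 9.87 untreated and 9.82, 9.81 and 9.96 treated at 6 h, and 8.16, 8.49 and 8.21 against 7.47, 7.14 and 7.28 at 24 h. Its arrays overlapped at 6 h and not at 24 h, and the effect went from 0.01 ± 0.09 to -0.99 ± 0.09. Kif20a, a mitotic kinesin, went from 0.01 to -1.11 and Cenpf, a kinetochore protein, from -0.04 to -1.41.

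The replication-licensing genes Mcm2 and Mcm6 were lower at 6 h, by -0.71 and -0.89, and stood at -0.11 and -0.12 at 24 h. Mcm7 and the licensing factor Cdt1 turned from lower to higher, Cdt1 from -0.28 to 0.59. The mitotic kinase gene Aurka turned from 0.29 to -0.65. In untreated cells 52 of the 54 members fell between 6 h and 24 h, so the PTH effects at 24 h are differences between falling levels. The split of the list into replication and mitotic genes was made after the values were seen. In the list of cell cycle brakes and D cyclins 11 of 23 changed (47.8%, against 20.4% of all genes). Among them Gadd45g turned from 0.61 to -0.94 and Ccnd1 grew from -0.80 to -1.47.

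Changed members of the sterol synthesis and unfolded protein lists were mostly fading increases, while untreated cells moved in opposite directions in the 2 lists. Of 31 sterol and fatty acid genes 17 changed (54.8%, against 20.4% of all genes) and 13 were fading increases (5.4% of all genes). Sqle, squalene epoxidase, read 10.27, 10.13 and 10.38 untreated and 11.59, 11.87 and 11.90 treated at 6 h, and 9.05, 8.70 and 8.92 against 9.25, 9.13 and 9.21 at 24 h. Its effect was 1.53 at 6 h and 0.31, not called, at 24 h, while untreated cells fell by 1.37 and 27 of the list's 31 members fell in untreated cells.

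Of 31 genes of the unfolded protein and integrated stress response 11 changed (35.5%, against 20.4% of all genes). Of these 11 genes 10 were fading increases (5.4% of all genes), and 29 of the 31 rose in untreated cells. Ddit3, the stress transcription factor CHOP, read 10.55, 10.89 and 10.74 untreated and 12.34, 12.75 and 12.34 treated at 6 h. After 24 h the arrays read 12.72, 12.83 and 12.78 untreated and 13.02, 13.16 and 12.99 treated. The treated level did not drop: it rose by 0.58, and the untreated level rose by 2.05, which left an effect of 0.28 in place of 1.75. Dnajb9, a chaperone of the endoplasmic reticulum, showed the same arrangement, with an untreated rise of 1.87 and effects of 1.5 and 0.49. Atf6, a sensor of this response, was the single growing member, at -0.18 and then 0.54.

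**Figure D5:**
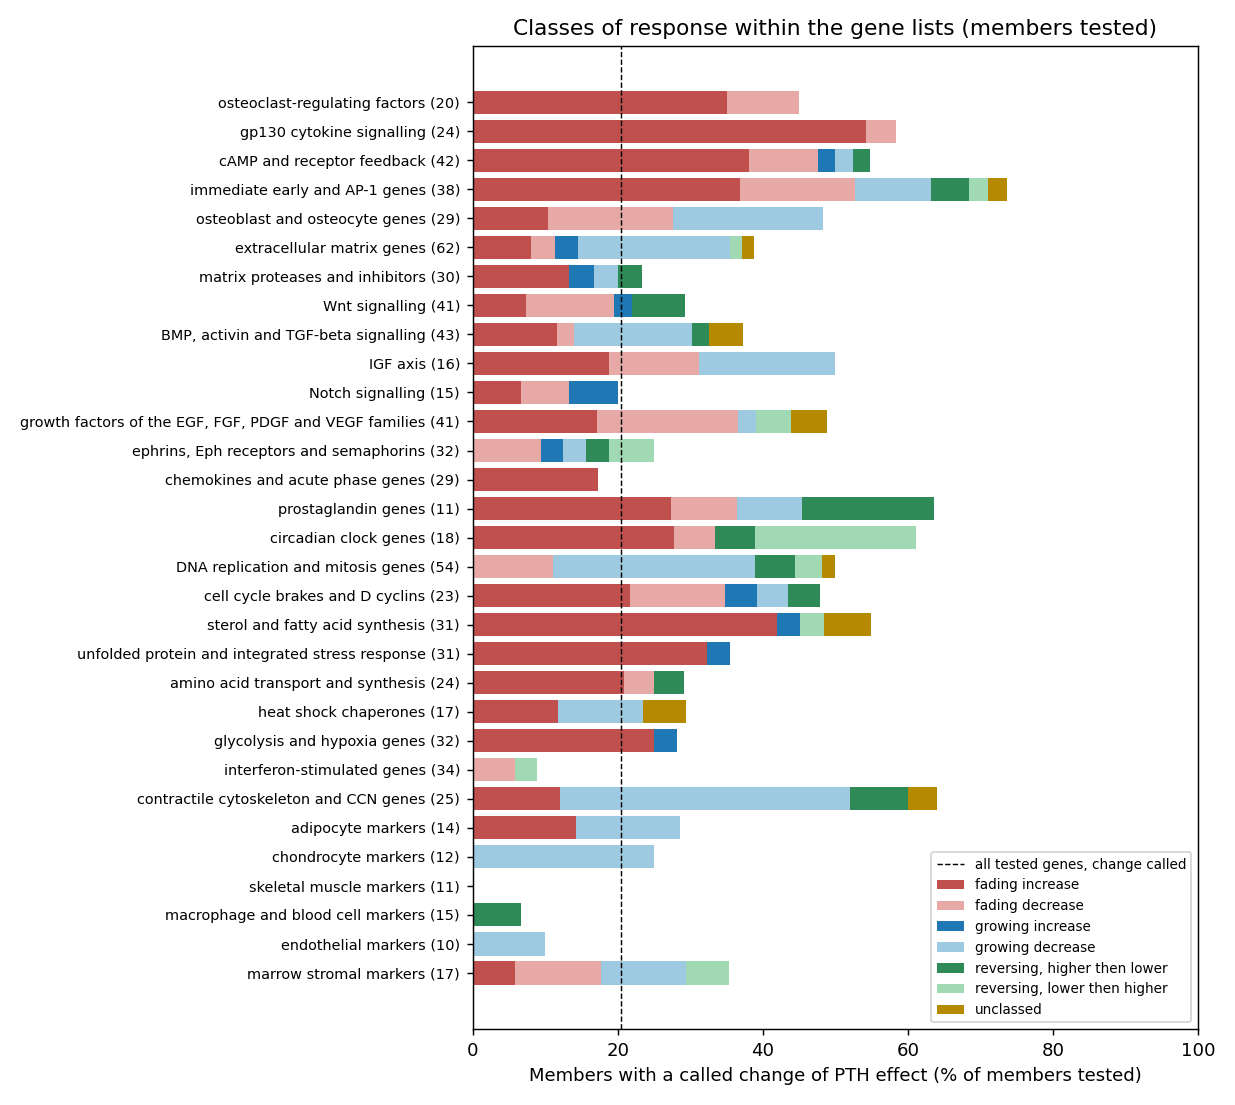
Share of the tested members of each of 31 gene lists (members tested in brackets) whose PTH effect changed between 6 h and 24 h, split by class. The dashed line marks the 20.4% of all tested genes. Fading increases fill most of the bars of the gp130, cAMP feedback, sterol and unfolded protein lists, and growing decreases most of the bars of the contractile and the DNA replication and mitosis lists.

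Markers of other cell types are set against the 20.4% of all genes that changed. Of 11 skeletal muscle markers 0 changed in limma (2 at an unadjusted p under 0.05), and of 15 macrophage and blood cell markers 1 changed, Cd68, from 0.46 to -0.47. The summed intensity of the macrophage and blood cell list was 1241 to 1289 untreated and 1278 to 1400 treated at 6 h, and 1323 to 1391 against 1213 to 1425 at 24 h. The endothelial list had 1 changed member of 10, and its sum did not overlap at 24 h, at 862 to 902 untreated and 728 to 847 treated. That member, Egfl7, had a mean intensity of 375 untreated and 253 treated at 24 h. A sum of linear intensities follows its brightest members and need not describe the whole list. Of 12 chondrocyte markers 3 changed (25.0%), all growing decreases: Col2a1, Col10a1 and Col11a2, whose call was lost on leaving out single arrays. Col10a1, the collagen of hypertrophic cartilage, read 7.06, 6.83 and 7.07 untreated and 5.81, 6.00 and 5.78 treated at 24 h. Its treated mean moved by -0.03 between the times, which did not pass the test, while the untreated level rose by 1.05. The chondrocyte sum was 2424 to 2623 untreated and 2164 to 2317 treated at 6 h, and 1996 to 2145 against 1450 to 1652 at 24 h. The 14 adipocyte markers had 4 changed members (28.6%; median change -0.47), among them Cebpb and Retn, which went from -0.01 to -1.01. The adipocyte sum was 16584 to 20406 untreated and 22639 to 27103 treated at 6 h, and overlapped at 24 h, at 22074 to 26206 and 25016 to 26794. Within that sum, the mean intensity at 6 h was 1106 untreated and 4747 treated for Cebpb, and 373 and 1658 for Cebpd. The part of these cell types in the results was not tested.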

How the data were processed

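Total RNA of 27 samples was hybridised to Affymetrix arrays. The deposited values are intensities on a linear scale from 6.79 to 36257, made by the authors with RMA per the submitters' processing notes and re-normalized for deposition per the series' design text; the version of RMA is not given in the sources used here. Probe-set genes came from GEO's platform annotation: 34958 of 45101 probe sets had 1 symbol, 932 several, and control probe sets were left out. Log2 intensities of 18193 genes (brightest probe set each, by the mean over all arrays) were filtered at log2 of at least 5 on at least 3 arrays. The 9 group means were fitted on all 27 arrays with limma 3.58.1 (R 4.3.3) with empirical Bayes moderation (18 residual and 5.54 prior degrees of freedom), and p-values were adjusted over all 15711 genes. The code was tested on simulated data. The number of arrays limits the precision. No 2 arrays held identical values.

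The comparison, the 31 gene lists (790 of 825 members on the array tested) and the named genes were chosen with earlier results of these data known. Named were the 8 largest changes of each class and direction (8 of all reversing), up to 4 changed members per list, and Tnfsf11, Tnfrsf11b, Efnb2, Pth1r, Il6 and Sost; 131 genes in all. Other list members in the text were picked after their values were seen. Of the 131 genes 70 had several tested probe sets: in 63 all agreed in the sign of the change, and in 0 was an opposite probe set called. The class could still differ. Among the leading reversing genes, another probe set of Gbp6, Etfbkmt, Slc43a2 and Prr5l was classed as fading. Another of St3gal1 gave a change of -0.13 that was not called. Other probe sets of Nr1d2, Slc43a2 and Prr5l were classed as reversing too. Alternatives covered normalization, filter, offset, probe-set summary, array weights, a minimum fold, a replicate block and leaving out each array.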

Additional observations from a re-analysis of the deposited data

Results flagged for a closer look

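A test of the difference between the 2 times, the interaction of treatment and time in limma, called 3211 genes. Among them, 249 reversing genes (1.58% of those tested) had effects of opposite sign at 6 h and 24 h, both past the test. Listed here are the 8 reversing genes with the largest change. Their changes of effect were 2.27 for Gbp6, -2.22 for S1pr1, -2.11 for Slc43a2, -2.08 for St3gal1, 2.06 for Etfbkmt, -2.05 for Prr5l, 1.84 for Eda2r and 1.81 for Nr1d2 (log2). In all 8 the treated and untreated arrays did not overlap at 6 h or at 24 h. The class required a called effect at both times, so this largely follows from the choice of genes and is no separate support.

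PTHrP(1-141), whose arrays enter the fit but none of the comparisons in the report, also changed its effect between 6 h and 24 h, for 1903 genes (12.1%, limma). It was compared with the same untreated arrays, so the values are given side by side only. Tnfsf11 stood at 4.22 and then 0.44 with PTHrP, against 5.35 and 0.93 with PTH. Postn stood at -0.31 and -2.47, against -0.17 and -2.70, and Nr1d2 at -1.10 and 0.74, against -0.96 and 0.86. S1pr1 stood at 1.45 and -0.03 with PTHrP, against 1.74 and -0.49. Doses differed (20 nM and 10 nM), and no difference between the peptides was tested.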

How the results depend on the processing

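Fading outnumbered growing and reversing responses under each alternative run. With a minimum of 1.5-fold (limma's treat) the counts were 294 changes, 25 growing, 226 fading, 0 reversing, 569 PTH effects at 6 h, 134 at 24 h, and 354 untreated and 1305 treated differences between the times. Array weights gave 5128 changes, 1072 growing, 695 reversing, 4388 effects at 24 h and 5614 untreated differences. With the upper quartile as a covariate 390 genes reversed. Leaving out 1 array of the 4 groups gave 2734 to 3145 changes, 328 to 431 growing, 1928 to 2230 fading and 171 to 239 reversing, 3830 to 4769 effects at 6 h and 1275 to 1833 at 24 h, and 2952 to 3831 untreated and 5906 to 6526 treated differences. Without the PTHrP array at 1 h that stands apart (replicate 3) 3706 changes and 333 reversing were called. Without PTH-treated replicate 1 at 24 h, 159 of the 249 reversing genes kept their class. Replicate numbers do not pair the arrays: same-numbered deviations correlated between -0.49 and 0.30, with every correlation over 0.1 in 0 of 6 pairs of groups. With a replicate block 3116 changes, 428 growing, 2232 fading and 235 reversing were called. Of the 131 named genes none changed the sign of its change in any alternative. In 3265 gene and setting pairs 133 calls were lost and 1 gained (Pth1r with array weights): 62 losses came with the 1.5-fold minimum, 59 on leaving out 1 of the 12 arrays and 12 elsewhere. The calls of Cebpd, Lfng, Col11a2, Idi1, Ifih1, Hsph1, Hspb1, Twist1, Notch1 and Herpud1 were lost on leaving out single arrays. Classes also shifted: in 25 settings Inhba took another class in 10, Ptger4 in 7 and Mbnl3 in 6, and Cd68 did so in 11 of 24. The causes were not tested. The values carry no background level per probe set, so no detection limit was set for dim genes.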
